A study of Mus musculus with 2 samples.

Results

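The genes described here are 8 homeobox genes, the HoxA genes *Hoxa5*, *Hoxa7*, *Hoxa9* and *Hoxa10*, the HoxB gene *Hoxb4*, and the genes of their DNA-binding partners *Meis1*, *Meis2* and *Pbx3*. The rule that chose them is a list of names, which picks 8 of the 23154 genes with a row in both count tables, and each was read in all 87 cells. The cells were PK44 cells, sorted as CD41-CD43-CD45-CD31+CD201+Kit+CD44+, from the yolk sac of E10.0 mouse embryos on a C57BL/6 background. They came from 2 libraries of this one condition, with 43 cells in replicate 1 and 44 in replicate 2, made by modified STRT-seq, a method that tags each cell with a barcode and each transcript with a unique molecular identifier (UMI). How many embryos were pooled for a library was not given in the sources used here, and no other tissue was analysed here.

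Hox genes encode transcription factors that tell cells where they lie along the body axis. They sit in clusters, and the genes at the low-numbered end of a cluster are used toward the head and those at the high-numbered end toward the tail. Meis and Pbx proteins are homeodomain factors of the TALE class that bind DNA together with Hox proteins. In blood, *Hoxa9* and *Meis1* are known for supporting stem and progenitor cells and for driving leukemia together, *Hoxb4* for expanding blood progenitors in culture, and the middle HoxA genes as a mark of definitive blood stem cells. *Runx1* encodes the transcription factor that endothelial cells need to turn into blood cells, and it is the usual marker of that step.

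On GRCm38 (mm10), *Hoxa5* lies on chromosome 6 at 52201754 to 52204587, *Hoxa7* at 52214491 to 52221854, *Hoxa9* at 52223100 to 52231089 and *Hoxa10* at 52231197 to 52240854, all on the minus strand. *Hoxb4* lies on chromosome 11 at 96318267 to 96321638 (plus strand) and *Meis1* on the same chromosome at 18879817 to 19018985 (minus strand). *Meis2* (115863064 to 116065839) and *Pbx3* (34171457 to 34373142) are both on the minus strand of chromosome 2. In GENCODE M21 *Hoxa5* overlaps *Hoxa3* on its own strand and, like *Hoxa7*, the antisense transcript *Hoxaas3*, and both of these neighbours had rows at 0 counts in all cells. *Meis1* and *Pbx3* overlap antisense transcripts with no row of their own. Whether the counting used strand is not given in the sources used here, so reads of such pairs cannot be told apart.

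The RefSeq promoter table for GRCm38.p6, with windows from 250 bases before to 50 bases after a start site, held 8 windows for 7 of the 8 genes and none for *Pbx3*. Each window was searched on both strands for the letters of a Runx motif (TGTGGT), a Meis motif (TGACAG) and a joint Pbx-Hox motif (TGATTNAT). *Meis1*, the member with the highest correlation with *Runx1* in both libraries, held the only match, a Runx motif at position -166 from the start site. It is shown here for the stretch upstream of the gene, chr11:19018986-19019219 on the minus strand, with the matching letters in capitals, and no match of the other motifs overlaps it:
Meis1 upstream: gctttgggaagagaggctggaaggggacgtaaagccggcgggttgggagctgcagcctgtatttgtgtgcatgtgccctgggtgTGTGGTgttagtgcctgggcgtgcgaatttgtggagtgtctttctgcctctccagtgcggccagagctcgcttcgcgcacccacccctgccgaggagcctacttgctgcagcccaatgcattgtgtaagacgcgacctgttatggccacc
The Runx letters were found in 1 of the 8 windows, against 16.8% of all 32851 windows of the table, the Meis letters in 0 of 8 against 19.2%, and the Pbx-Hox letters in 0 of 8 against 3.22%. A match of 6 letters is common and is a description of the sequence, not a binding site.

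Replicate 1 held 8932527 counts, with a median of 141577 per cell (13218 to 702028), and replicate 2 held 12706360, with a median of 238898 (51620 to 956593). No barcode was shared by the libraries. The 6 endothelial markers *Pecam1*, *Cdh5*, *Kdr*, *Tek*, *Tie1* and *Emcn* were each found in at least 50% of the cells of each library, while in 3 cells (2 of replicate 1 and 1 of replicate 2) the collagen genes *Col1a1*, *Col1a2* and *Col3a1* each had 100 counts or more. These collagen-rich cells stand apart from the rest, and results that they touch are also given without them. Levels are CPM, the counts of a gene scaled to a common total for every cell or library. Each transcript is counted once, at its 3′ end, so the values were not divided by gene length.

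*Meis1* and *Meis2* were widespread. *Pbx3* was found in over 50% of the cells of replicate 2 and *Hoxa9* in over 50% of those of replicate 1, while the other 4 Hox genes stayed under 50% in both. Taking widespread as a count in at least 50% of the cells of each library, and absent or nearly so as a count in under 5% of all cells, 2 of the 8 genes were widespread, 6 were low and 0 were absent. Among all 13206 genes with a count, 3661 (27.7%) were widespread by the same measure, so 2 of 8 is close to the background. The class depends on what counts as found. Asking for 10 counts in a cell, or thinning each cell to 20000 counts, left 0 of the 8 widespread, and 3 and 2 of them, respectively, in under 5% of the cells. The plot of counts in every cell shows the same spread from gene to gene.

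**Figure D1:**
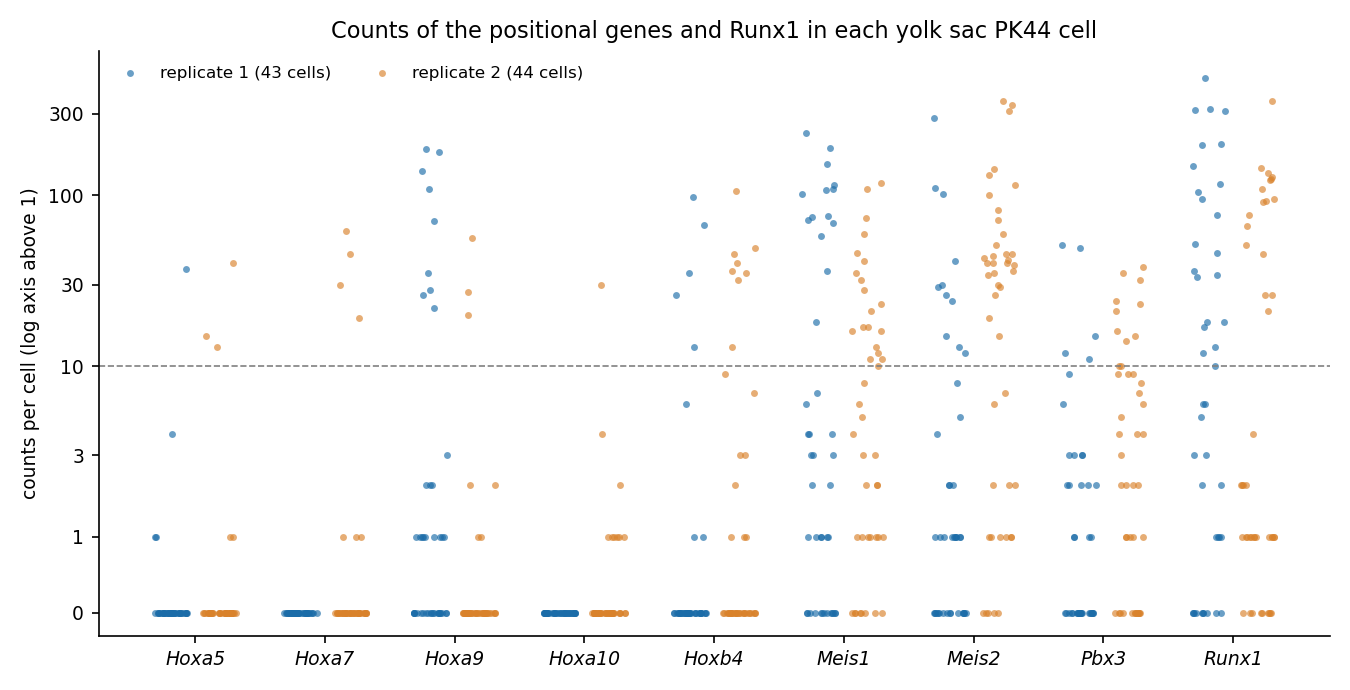
Counts of the 8 positional genes and of Runx1 in each of the 87 cells (y axis, counts per cell, log axis above 1), with replicate 1 in blue (43 cells), replicate 2 in orange (44 cells) and a dashed line at 10 counts. Meis1 and Meis2 reach 10 counts in 34 and 39 cells, and Hoxa5, Hoxa7 and Hoxa10 in 4, 4 and 1 cells.

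*Meis1* encodes a TALE factor that stabilizes Hox proteins on DNA and is needed for fetal blood stem cells. It had a count in 30 of 43 cells of replicate 1 (69.8%, exact 95% interval 53.9% to 82.8%) and in 36 of 44 cells of replicate 2 (81.8%, 67.3% to 91.8%). These exact (Clopper-Pearson) intervals cover counting error only. Its counts per cell ran from 0 to 231 with a median of 3 in replicate 1, and from 0 to 118 with a median of 5.5 in replicate 2. At least 10 counts were found in 14 cells of replicate 1 and 20 of replicate 2, and these 34 cells held 96.1% of all *Meis1* counts. Its transcripts thus lay in a minority of the cells. Summed over the cells of a library, its level was 162.6 CPM in replicate 1 and 59.0 CPM in replicate 2, a mean of 111 ± 73.2 CPM (SD, n = 2 libraries). *Meis1* was 2.75-fold higher in replicate 1, as *Runx1* was there (300 against 136 CPM, 2.20-fold).

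*Meis2*, the paralog best known from limb, heart and brain development, was found in as many cells, 66 of 87 (75.9%, 65.5% to 84.4%), but was higher in the other library. Replicate 1 had 80.3 CPM and replicate 2 had 187 CPM of it, a mean of 134 ± 75.8 CPM (SD, n = 2 libraries). Counts per cell ran from 0 to 283 with a median of 1 in replicate 1 and from 0 to 355 with a median of 34.5 in replicate 2, and 11 and 28 cells had at least 10 counts. A single cell held 283 of the 717 *Meis2* counts of replicate 1, and without it the level there was 50.04 CPM. *Meis2* was the one member with a visible share in the 3 collagen-rich cells, which held 5.45% of its counts at 43.9 to 676 CPM, where the remaining cells had a median of 38.1 CPM. For the other 7 genes these cells held between 0 and 1.20% of the counts.

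*Pbx3*, which encodes another TALE partner and is known as a cofactor of *Hoxa9* in leukemia, was found in 20 of 43 cells (46.5%, 31.2% to 62.3%) and 31 of 44 cells (70.5%, 54.8% to 83.2%). Summed over a library, its level was 20.0 and 25.1 CPM, and as a mean over cells 14.5 and 30.8 CPM, so the gap between libraries depends on how cells are weighted. Counts ran up to 51 per cell in replicate 1 and 38 in replicate 2, and 23 of its 51 positive cells had only 1 to 3 counts.

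*Hoxa9* was far higher in one library than in the other. A count was found in 22 of 43 cells of replicate 1 (51.2%, 35.5% to 66.7%) and in 7 of 44 cells of replicate 2 (15.9%, 6.64% to 30.1%). In replicate 1, 9 cells had 186, 179, 139, 109, 71, 35, 28, 26 and 22 counts, and the other 13 had 1 to 3. In replicate 2, 3 cells had 56, 27 and 20 counts and 4 had 1 or 2. The 12 cells with at least 10 counts held 97.4% of all *Hoxa9* counts, so the gene was high in a few cells and near 0 in most. The level was 91.0 CPM in replicate 1 and 8.58 CPM in replicate 2, 10.6-fold apart with 1 library on each side, and with no replication of either library this difference has no test. Leaving out the top cell of each library gave 71.6 and 4.29 CPM.

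*Hoxb4* had 27.5 and 30.1 CPM in the summed counts of the libraries, and 48.3 and 33.9 CPM as a mean over cells. It had a count in 8 of 43 cells (18.6%, 8.39% to 33.4%) and 16 of 44 cells (36.4%, 22.4% to 52.2%). The 8 cells of replicate 1 had 97, 67, 35, 26, 13, 6, 1 and 1 counts. In replicate 2, the highest cells had 106, 49, 45, 40, 36, 35, 32 and 13 counts and the other 8 had 1 to 9.

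The other HoxA members were at or near the limit of detection in most cells. *Hoxa5* had 37, 4, 1 and 1 counts in 4 cells of replicate 1 and 40, 15, 13, 1 and 1 in 5 cells of replicate 2 (4.81 and 5.51 CPM), and without the top cell of each library its level was 0.69 and 2.43 CPM. *Hoxa7* was found in 0 of 43 cells of replicate 1, which by the floor of 3 counts allows a share of cells with a UMI of up to 6.98% (8.22% by the exact interval), and in 7 of 44 cells of replicate 2 (15.9%, 6.64% to 30.1%), where 4 cells with 62, 45, 30 and 19 counts made most of its 12.5 CPM (7.89 CPM without the top cell). *Hoxa10*, next to *Hoxa9* in the cluster, was likewise found in 0 of 43 cells of replicate 1. In replicate 2 it had a count in 9 of 44 cells, but only 1 cell had over 4 counts, with 30 of the 42 in all (3.31 CPM, or 0.97 without that cell). At the depth of replicate 1, the floor of 3 counts is 0.34 CPM. Being at 0 in replicate 1 is no rarity in these data, as 1719 of the 13206 genes with a count (13.02%) were at 0 there.

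Single counts weigh little here. The collagen genes, markers of mesenchymal cells, had 1 to 3 counts in many of the cells that were not collagen-rich, for *Col1a1* in 16 of 41 cells of replicate 1 and 29 of 43 of replicate 2. Of the positive cells, 17 of 29 for *Hoxa9*, 7 of 9 for *Hoxa10* and 4 of 9 for *Hoxa5* had 1 to 3 counts. After thinning to 20000 counts per cell, which left out 1 cell of replicate 1, *Meis2* was found in 44 of 86 cells, *Meis1* in 36, *Pbx3* in 17, *Hoxb4* in 15, *Hoxa9* in 13, *Hoxa5* in 6, *Hoxa7* in 3 and *Hoxa10* in 2.

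By mean level the order was *Meis2*, *Meis1*, *Hoxa9* (49.8 ± 58.3 CPM), *Hoxb4* (28.8 ± 1.84), *Pbx3* (22.6 ± 3.58), *Hoxa7* (6.26 ± 8.85), *Hoxa5* (5.16 ± 0.49) and *Hoxa10* (1.65 ± 2.34, all SD, n = 2 libraries). The library values of *Meis2* and *Meis1* overlap, as do those of *Meis1* and *Hoxa9*, of *Hoxa9* and *Hoxb4*, and of *Hoxa7* and *Hoxa5*. The values of *Hoxb4* and *Pbx3*, of *Pbx3* and *Hoxa7*, and of *Hoxa5* and *Hoxa10* do not overlap. Within each library *Meis1* was also above *Hoxa9*. With 2 libraries this order is a description.

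Over all Hox genes, members included, those of the HoxB cluster were found in the most cells. All 39 Hox genes had a row, 20 had a count and 19 were at 0 in every cell. Of the 12 genes of paralog groups 10 to 13, which pattern the tail end of the body, *Hoxa10* was the only one with a count. A count of any HoxB gene was found in 77 of 87 cells, of any HoxA gene in 42, of any HoxD gene in 42 and of any HoxC gene in 14. With at least 10 counts of 1 gene, these were 46, 19, 11 and 3 cells, and the 3 HoxC cells were the collagen-rich cells.

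The neighbours of the HoxA members were found in few cells or none. *Hoxa6*, between *Hoxa5* and *Hoxa7*, was found in 2 cells of each library (11.2 and 0.71 CPM), and *Hoxa11*, beyond *Hoxa10*, and the more anterior *Hoxa2*, *Hoxa3* and *Hoxa4* were at 0. The neighbours of *Hoxb4* were more common. *Hoxb5* was the only Hox gene found in at least 50% of the cells of each library, with a count in 27 and 26 cells at 34.5 and 77.6 CPM, and *Hoxb3* had a count in 13 and 16 cells at 12.2 and 35.4 CPM. Both were higher in replicate 2, the library in which *Hoxa9* was lower. *Hoxa7*, *Hoxa10* and 3 other Hox genes (*Hoxb7*, *Hoxb9* and *Hoxd4*) had counts in replicate 2 only. *Cdx1*, *Cdx2* and *Cdx4*, whose products switch on posterior Hox genes in the early embryo, were all at 0.

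**Figure D2:**
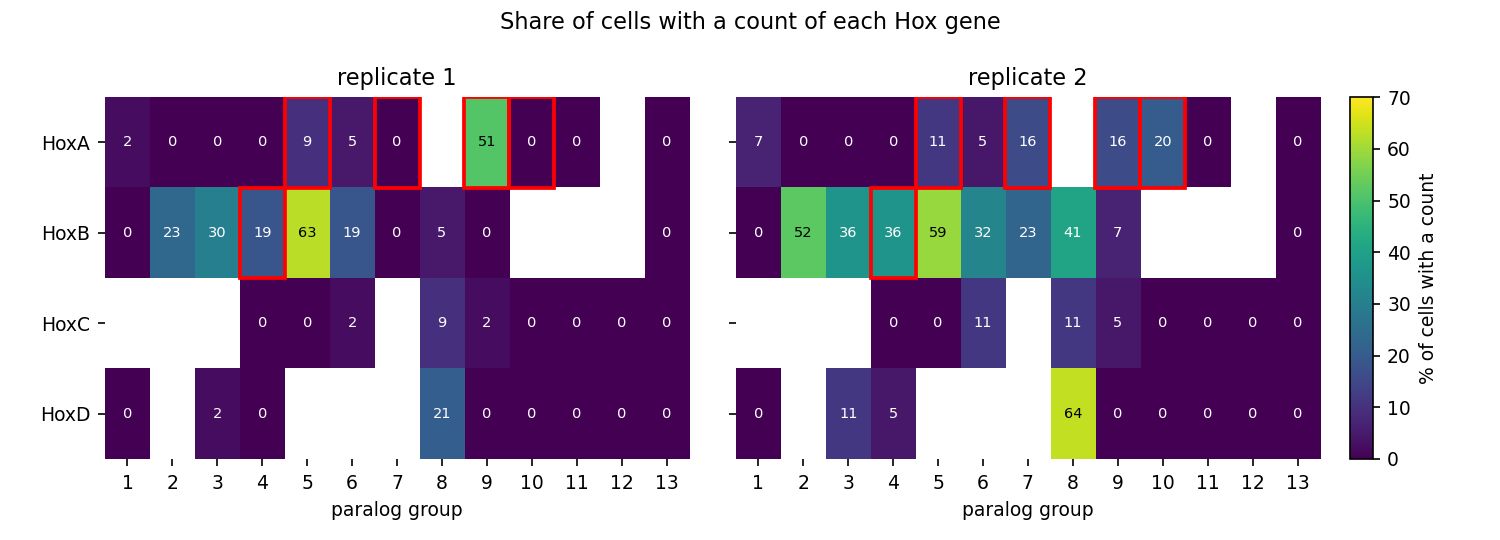
Share of cells with a count (colour and printed number, % of the 43 or 44 cells) for each Hox gene by cluster (rows) and paralog group (columns), one panel per library, with the 5 Hox members outlined in red and white where no gene exists. Hoxb5 is above 50% in both panels, Hoxa9 in replicate 1 only, and 11 of the 12 genes of groups 10 to 13 are at 0 in both.

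Among other TALE partner genes, *Pbx2*, a paralog of *Pbx3*, was found in 69 of 87 cells at 74.7 and 73.0 CPM, above *Pbx3* in each library. *Pknox1* had 12.7 and 36.8 CPM. *Meis3* had a count in 1 cell and *Pknox2* in 2 cells, all of them collagen-rich, and *Pbx4* had a count in none.

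Some cells held high counts of more than 1 Hox member. At least 10 counts of 1 or more of the 5 were found in 26 of 87 cells (12 of 43 and 14 of 44). In 19 of these cells 1 member, in 6 cells 2 members and in 1 cell 3 members reached 10 counts. The Spearman correlations between Hox members over the cells of a library ran from -0.02 to 0.43, and *Hoxa5* had the highest, with *Hoxb4* (0.43 in replicate 1 but 0.07 in replicate 2), *Hoxa7* (0.42, replicate 2 only) and *Hoxa9* (0.36 and 0.25). Of the 12 cells with at least 10 *Hoxa9* counts, 5 also had at least 10 of *Meis1*, 6 of *Pbx3* and 3 of *Hoxb4*, while over all 87 cells these 3 genes reached 10 counts in 34, 16 and 13. Deeper cells showed more genes. In replicate 1 the 25 cells with any count of a Hox member had a median of 260240 counts and the 18 without had 76713.5. In replicate 2 these medians were 273264 and 207486. The part of depth in which cells shared genes was not tested.

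The relation to *Runx1* was examined first over the cells of each library, as Spearman correlations of CPM. Cells of a library share that library and differ in depth, so the coefficients are a description and carry no p. *Meis1* was the member most alike to *Runx1*, with rho of 0.33 in replicate 1 (n = 43 cells) and 0.51 in replicate 2 (n = 44 cells). Over 3660 widespread genes the median rho was 0.12 in replicate 1 and 0.11 in replicate 2, and 89.8% and 97.5% of these genes were below *Meis1*. *Meis2* went the other way, with rho of -0.40 and -0.12, and only 0.33% of the genes in replicate 1 and 14.9% in replicate 2 were below it.

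Depth moved with both *Runx1* and *Meis1*. *Runx1* correlated with the total count of a cell at 0.34 and 0.35, and *Meis1* at 0.41 in replicate 1 and 0.11 in replicate 2. With depth partialled out, the rho of *Meis1* with *Runx1* was 0.22 and 0.51. After thinning, it was 0.21 and 0.31 for *Meis1*, and -0.29 and -0.35 for *Meis2*. Among cells with a *Runx1* count (33 and 35 cells), the rho of *Meis1* fell to 0.07 in replicate 1 and was 0.35 in replicate 2. *Meis2* had -0.31 and -0.41 among them. Without the collagen-rich cells the values were 0.31 and 0.51 for *Meis1* and -0.39 and -0.12 for *Meis2*.

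For the other members the correlations were near 0 or differed between libraries. *Pbx3* had 0.25 and 0.03 (0.36 and -0.08 after thinning), and its correlation with depth in replicate 1 was 0.51. *Hoxa9* had 0.01 and 0.17, *Hoxb4* 0.12 and 0.03, and *Hoxa5* 0.08 and 0.07. *Hoxa7* (0.02) and *Hoxa10* (0.19) could be read in replicate 2 only, in 7 and 9 positive cells. Before thinning, these correlations with *Runx1* all lie between the 5th and 95th percentiles over the 3660 widespread genes. Those percentiles were -0.18 and 0.39 in replicate 1 and -0.27 and 0.46 in replicate 2. None of these members was widespread, and many cells tied at 0 limit how far rho can go from 0. The range of widespread genes therefore cannot show whether these members are related to *Runx1*.

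**Figure D3:**
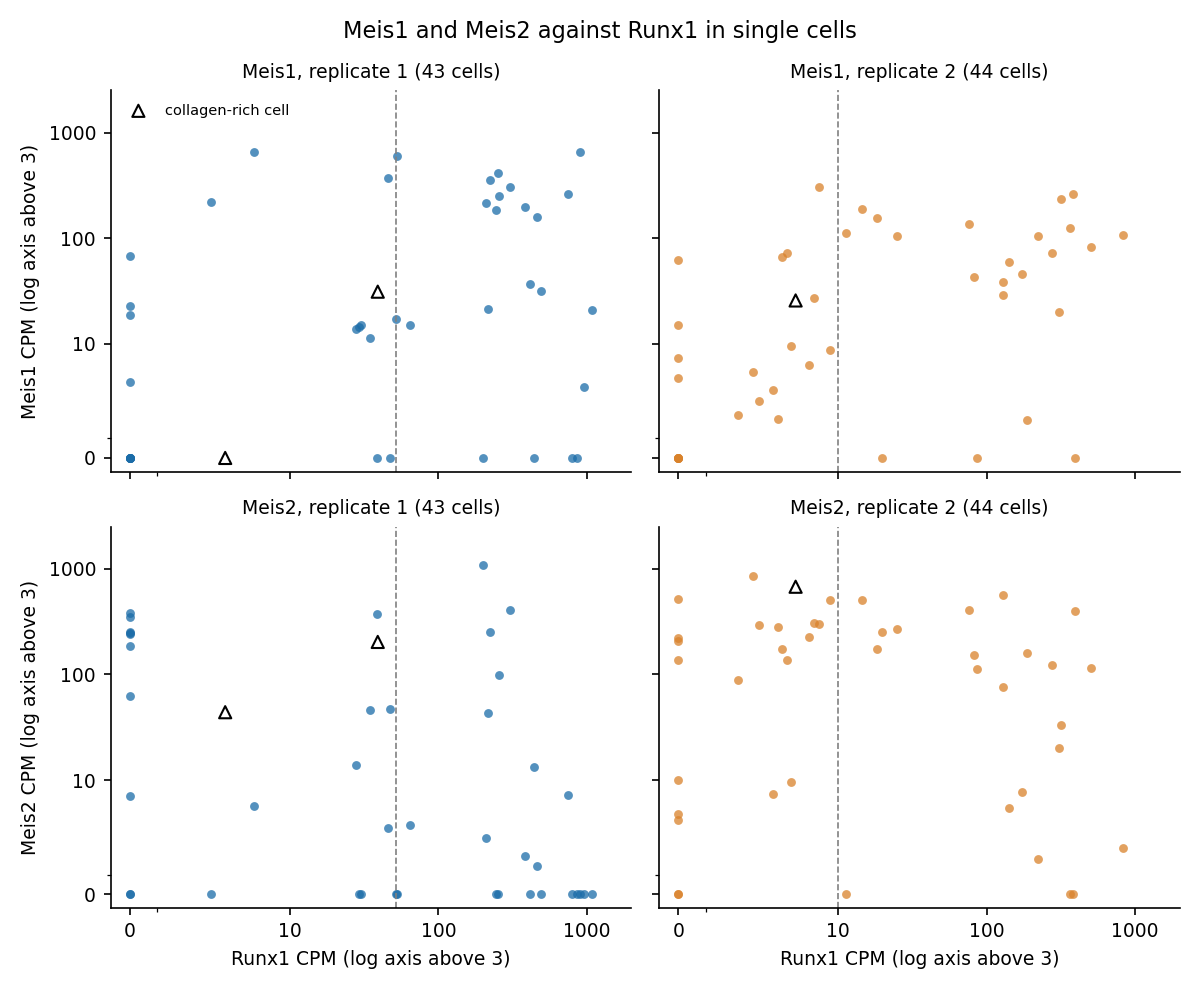
Meis1 (top) and Meis2 (bottom) against Runx1 in single cells, in CPM of each cell on axes that are logarithmic above 3, with replicate 1 left and replicate 2 right. Dashed lines mark the median Runx1 level of a library and triangles the 3 collagen-rich cells. In replicate 2, 17 of the 22 cells right of the line and 3 of the 22 left of it had at least 10 Meis1 counts.

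*Meis1* and *Meis2* also went opposite ways with scores of hematopoietic and endothelial genes. The fate of a cell was not measured. Depth was not taken out of these score correlations, and they were not set against all genes. With a score of 7 hematopoietic genes, *Runx1* left out, *Meis1* had rho of 0.35 and 0.58 and *Meis2* -0.33 and -0.18. With a score of 15 endothelial genes *Meis1* had -0.32 and -0.09 and *Meis2* 0.39 and 0.29. *Meis1* and *Meis2* correlated with each other at -0.27 and -0.17. The 5 genes whose pattern was most like *Meis1*, by the lower of the library coefficients among 3659 widespread genes, were *Rrs1* (0.50 and 0.59), *Dok2* (0.50 and 0.52), *Isyna1* (0.49 and 0.48), *Srm* (0.53 and 0.47) and *Ppp1r14b* (0.45 and 0.57). For *Meis2* they were *Vim*, which encodes the intermediate filament vimentin (0.38 and 0.37), *Capn2* (0.42 and 0.36), *Gja4*, which encodes an arterial gap junction protein (0.36 and 0.39), *Atp2b1* (0.35 and 0.36) and *Lrrc32* (0.49 and 0.31).

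For a test over libraries, the cells of each library were split at its median *Runx1* CPM and summed, giving 4 sums. In replicate 1, 21 Runx1-high and 22 Runx1-low cells had summed *Runx1* levels of 457 and 15.8 CPM, and in replicate 2, 22 and 22 cells had 226 and 2.94 CPM. In the Runx1-high cells *Meis1* was higher and *Meis2* lower in both libraries, whereas *Hoxa5*, *Hoxa9*, *Hoxb4* and *Pbx3* were higher in replicate 1 and lower in replicate 2. None of these differences passed the test.

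*Meis1* had 196 CPM in Runx1-high and 101 CPM in Runx1-low cells of replicate 1, and 84.4 and 21.2 CPM in replicate 2. At least 10 counts were found in 11 of 21 against 3 of 22 cells and in 17 of 22 against 3 of 22 cells, and the median per cell was 158 against 12.7 CPM and 78.0 against 5.90 CPM. The 4 sums nonetheless overlap between the groups, since the Runx1-low sum of replicate 1 is above the Runx1-high sum of replicate 2. The log2 fold change was 1.14 (standard error 0.78, 95% interval -0.61 to 2.90), which did not pass (adjusted p = 0.979, edgeR quasi-likelihood, adjusted by Benjamini-Hochberg over 10629 genes). Within the libraries the changes were 0.89 and 1.99. With the library as a block the change was 1.43 (standard error 0.57, 0.32 to 2.55), with an unadjusted p of 0.0117 and an adjusted p of 0.275 by the same edgeR test. Without the collagen-rich cells, which all were Runx1-low, the change was 0.73 without the block and 1.14 with it. These fits split the remaining cells again, which moved a Runx1-high cell of each library to Runx1-low. The moved cells had 69 *Meis1* counts in replicate 1 and 10 in replicate 2. With the first split kept, the Runx1-low sums without the collagen-rich cells were 115 and 20.98 CPM. The part of the moved cells in the lower change was not tested.

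*Meis2* had 67.2 CPM in Runx1-high and 104 CPM in Runx1-low cells of replicate 1, and 159 and 230 CPM in replicate 2. A single Runx1-high cell of replicate 1 held 283 of the 387 *Meis2* counts of its group, so the change there rests heavily on that cell. The median per cell was 1.45 against 44.9 CPM and 114 against 190 CPM. Here too the groups overlap, because both sums of replicate 2 were above both of replicate 1. The log2 fold change was -0.59 (standard error 0.59, -1.91 to 0.74; adjusted p = 1.00 by edgeR's quasi-likelihood test), with -0.69 and -0.54 within the libraries, -0.61 with the library as a block and -0.47 without the collagen-rich cells. *Pbx3* had 27.8 against 5.99 CPM in replicate 1 and 22.0 against 29.8 CPM in replicate 2, with a fitted change of 0.46 (standard error 1.26).

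The Hox members showed no common direction. *Hoxa9* had 102 CPM in Runx1-high and 70.6 CPM in Runx1-low cells of replicate 1, where 7 and 2 cells reached 10 counts, and 3.16 against 16.7 CPM in replicate 2, where 1 and 2 cells did. *Hoxb4* had 35.6 against 12.9 CPM and 27.0 against 34.9 CPM. *Hoxa5* had 6.77 against 1.26 CPM and 2.104 against 10.6 CPM. *Hoxa7*, at 0 in replicate 1, had 12.4 against 12.7 CPM in replicate 2, and *Hoxa10* had 1.05 against 6.66 CPM there, of which 1 cell held most. The fitted log2 changes were 0.23 for *Hoxa9* (standard error 1.29), 0.37 for *Hoxb4* (1.05), -0.42 for *Hoxa5* (2.27) and -0.05 for *Hoxa7* (2.81). *Hoxa10* did not pass the filter on low counts.

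**Figure D4:**
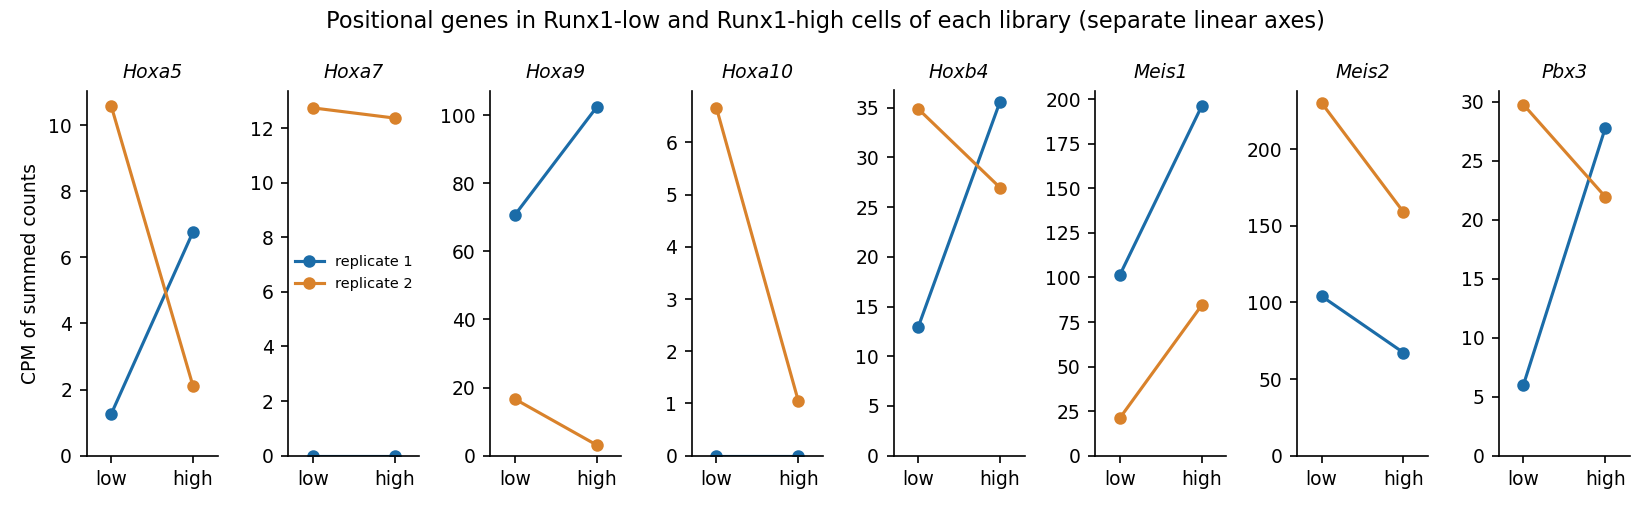
CPM of the summed counts of each positional gene in Runx1-low and Runx1-high cells, with replicate 1 in blue and replicate 2 in orange. Each panel has its own linear axis from 0, and each point is 1 sum of 21 or 22 cells with no error bar. Meis1 is higher and Meis2 lower in Runx1-high cells of both libraries, while the lines of Hoxa5, Hoxa9, Hoxb4 and Pbx3 run in opposite directions.

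By edgeR 0 of the 7 members that passed the filter were called, where 0.00941% of all genes tested were (1 of 10629, the collagen gene *Col1a1*, with 588 genes at an unadjusted p under 0.05). None of the members was among those 588. With the library as a block 0 of 7 were called, against 1.56% of all genes (166, of which 126 were lower in Runx1-high cells), and by DESeq2 without a block 0 of the 7 with an adjusted p, against 1.3% (137 of 10501). The median change of the 7 members was 0.23, against -0.01 over all genes tested, and with the block it was -0.04 against 0.07, so its direction depends on the block. The share of 0 of 7 is near these background shares, and the intervals of *Meis1* and *Meis2* leave room for changes over 1 on the log2 scale.

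The Runx1-low cells differed from the Runx1-high cells in more than *Runx1*. Cells of replicate 1 had a median depth of 95376 counts when Runx1-low and 260240 when Runx1-high, and those of replicate 2 had 213444 and 271734. All 6 arterial genes were lower in Runx1-high cells of both libraries, with summed levels of 228 against 1444 CPM and 828 against 3257 CPM. All 6 were called by edgeR with the block and 0 without it. The 6 endothelial markers (1175 against 2681 and 2058 against 3572 CPM), *Lyve1* and *Stab2* were lower in both libraries too. With the block 3 of the 6, *Lyve1* and *Stab2* were called. The hematopoietic markers *Spi1*, *Myb*, *Itga2b*, *Ptprc* and *Spn* summed to 275 against 362 CPM in replicate 1 and 159 against 62.9 CPM in replicate 2. These sums hide opposite directions. *Spi1*, *Ptprc* and *Spn* were higher in Runx1-high cells of both libraries, though *Ptprc* was found in only 3 cells and *Spn* in 9. *Itga2b* was lower in both, with log2 changes of -3.67 and -0.65. *Myb* was lower in replicate 1 and higher in replicate 2. None of these markers was called with or without the block. The 7 genes of the hematopoietic score were higher in both libraries, and 3 were called with the block. The 6 mesenchymal genes summed to 53.0 against 2264 CPM and 23.3 against 794 CPM, with *Dcn* and *Pdgfra* at 0 in the Runx1-high cells of replicate 2. The collagen-rich cells carried this difference, as without them the sums were 53.0 against 61.7 CPM and 23.3 against 26.9 CPM. Without them the arterial sums of the Runx1-low cells were 1630 and 3363 CPM. The 5 macrophage genes summed to 92.0 against 33.7 CPM and 44.7 against 11.6 CPM, nearly all of it *Lyz2*, with *C1qa* and *C1qb* at 0 throughout. The part of depth and of these cell types in the values of *Meis1* and *Meis2* was not tested.

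Of the genes listed as Hox partners and regulators, none changed by the test without the block. Of the 8 genes tested on the list of TALE genes and their interactors, *Meis1* alone was higher in Runx1-high cells of both libraries. The 3 lower in both were *Meis2*, *Pknox1* and *Pknox2*. Without the collagen-rich cells, *Pknox1* had 0.72 and 39.7 CPM in Runx1-low cells, against 12.0 and 35.9 CPM in Runx1-high cells. *Pknox2* in Runx1-low cells fell from 30.6 and 1.96 CPM to 0 in both libraries. Of the 3, only *Meis2* stayed lower in both. Of 16 Hox genes tested, 1 was higher and 5 were lower in both libraries, and 0 were called with or without the block. The one that was higher was *Hoxb3* (13.4 against 10.1 CPM and 53.4 against 8.62 CPM). Single Runx1-high cells held 48 of its 77 counts in that group of replicate 1 and 233 of 406 in replicate 2. The cells with a *Hoxb3* count were 6 of 21 against 7 of 22 and 8 of 22 against 8 of 22. *Hoxc8* and *Hoxc9* were among the 5. Without the collagen-rich cells, *Hoxc8* in Runx1-low cells fell from 58.3 and 18.8 CPM to 0 and 0.41 CPM. *Hoxc9* there fell from 23.3 and 3.14 CPM to 0 in both libraries. Their Runx1-high levels were 0.35 and 0.26 CPM for *Hoxc8* and 0 and 0.13 CPM for *Hoxc9*, so neither stayed lower in both.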

How the data were processed

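Reads were processed by the authors, who split them by cell barcode, trimmed and aligned them to mm10 with HISAT2 2.1.0, counted uniquely mapped reads with HTSeq (version and strand setting not given in the sources used here) and collapsed duplicates by UMI. Cells of low quality had been removed by the authors. The deposited values are the resulting counts per gene and cell, not normalized. Cell barcode tables hold no measurement and were used here only to see whether the libraries shared a barcode. All deposited cells entered, without a doublet caller.

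CPM, shares with exact (Clopper-Pearson) 95% intervals and Spearman correlations were computed with scipy 1.17.1, numpy 2.4.6 and pandas 2.3.3 in Python 3.11.15, and plotted by matplotlib 3.10.9. Cells were also thinned to 20000 counts. A floor is 3 counts. Counts of Runx1-high and Runx1-low cells were summed per library. The sums were tested by the two-sided quasi-likelihood test of edgeR 4.0.16 under R 4.3.3 (TMM, filterByExpr, Benjamini-Hochberg over all genes tested, threshold 0.05), with *Runx1* left out of the genes tested. The main design had no block, since the study names a rank test over cells and no block. That rank test did not use library sums. Each library was split at its own median *Runx1*, so without the block the difference between libraries enters the error. Fits with the block are given beside it. Cells are not replicates, and nothing in the labels says that the 2 libraries came from separate litters, so p-values measure the spread between these libraries, which may be technical. Sums with the same replicate number come from 1 library, so the number pairs them, and their deviations from the group means correlated at 0.23 over 10629 genes. The fit was tested on simulated counts.

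Named genes were the 8 members and *Runx1*, the paralogs next to a member, the 10 most abundant of the other listed genes, and the 5 genes most like each widespread member. One gene that this rule names is not reported here. *Cdx* genes, Hox genes counted in 1 library only, genes touched by the collagen-rich cells and genes of marker lists were named beside their counts. Members and lists were chosen with earlier results of these data known. Alternatives were the library block, other size factors, DESeq2 1.42.0, no low-count filter, other splits, thinned cells, no collagen-rich cells and single libraries. Fits without the collagen-rich cells split the remaining cells again at their median *Runx1*, while CPM sums without them kept the first split.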

Additional observations from a re-analysis of the deposited data

How the results depend on the processing

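Among the members that entered each of the 13 settings, 5 to 8 by setting, 0 were called. *Hoxa10* had an adjusted p only with no low-count filter, and *Hoxa5*, *Hoxa7* and *Hoxa10* could not be tested with thinned cells. The number of all genes called was 1 and moved to 166 with the library as a block, 137 by DESeq2, 67 with no low-count filter, 2 with thinned cells, and 0 each with the cells at the extremes of *Runx1* (the outer tertiles), with any *Runx1* count against none, and without the collagen-rich cells. With the block, in combinations chosen after seeing the data, it was 114 with tertiles, 5 with thinned cells, 147 without the collagen-rich cells and 5 with any count against none. Over all settings the adjusted p ran from 0.27 to 1.00 for *Meis1* and from 0.28 to 1.00 for *Meis2*, and neither changed direction. The log2 change of *Hoxa9*, 0.23, turned to -0.91 with the block, -0.51 with tertiles, -0.022 with thinned cells, -1.38 with block and tertiles and -0.99 with block and no collagen-rich cells. That of *Hoxa5*, -0.42, turned to 1.66 with any count against none, 0.062 with block and tertiles and 2.60 with block and any count. That of *Hoxb4*, 0.37, turned to -0.075 with any count against none and -0.032 with the block as well. The cause was not tested. Members in at least 50% of cells numbered 2, and 0 at 10 counts per cell or after thinning, and 3 with either library alone. Members in under 5% of cells numbered 0, and 3 at 10 counts, 2 after thinning, and 0 to 2 with single libraries. A single library leaves no residual degrees of freedom for the fit, so only values were given. Depth limits the shares: thinning took *Pbx3* from 58.6% to 19.8% of cells and *Hoxa9* from 33.3% to 15.1%, and *Hoxa5*, *Hoxa7* and *Hoxa10* had 113, 159 and 42 counts in all.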

Other observations

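The regulators that keep Hox clusters open or closed were common in the yolk sac PK44 cells, although most Hox genes were not. Of the 8 genes listed, 7 were found in at least 50% of the cells of each library, against 27.7% of all 13206 genes with a count. Here too the class depends on what counts as found. In replicate 1, *Ezh2* reached 10 counts in 14 of 21 Runx1-high and 12 of 22 Runx1-low cells, and *Rnf2* in 3 and 3. *Ezh2*, which encodes the methyltransferase of Polycomb complex 2, had 285 and 189 CPM in replicates 1 and 2, and *Suz12*, another subunit of that complex, had 119 and 101 CPM. *Kmt2a*, which encodes the MLL methyltransferase that maintains Hox genes in blood, had 144 and 82.3 CPM, and its partner *Men1* had 78.0 and 85.9 CPM. *Rnf2*, which encodes a ubiquitin ligase of Polycomb complex 1, had 87.7 and 67.3 CPM. None of the 8 was called between Runx1-high and Runx1-low cells, with or without the library as a block.

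Of 6 genes often named as targets of *Hoxa9* and *Meis1*, *Id2*, *Lmo2* and *Erg* were widespread, with 94.2 and 240 CPM, 153 and 162 CPM and 144 and 75.3 CPM. *Flt3*, chosen here after its values were seen, was found in 9 cells of replicate 1, of which 8 had 1 to 3 counts, with 19 counts in all. In replicate 2 none of the 44 cells held a count of it, which by the floor of 3 counts allows a share of cells with a UMI of up to 6.82% (8.04% by the exact interval), and after thinning it was found in 0 cells of either library. *Myb* had 72.5 and 16.1 CPM, and its change in Runx1-high cells was -1.08 in replicate 1 and 4.15 in replicate 2. *Sox4* had 30.6 and 142 CPM. It was lower in Runx1-high cells of both libraries, with changes of -1.33 and -3.21. In replicate 1, a single Runx1-low cell held 126 of the 156 *Sox4* counts of its group. Only 4 of 22 Runx1-low cells there had a count, against 8 of 21 Runx1-high cells. The rho of *Sox4* with *Runx1* was 0.15 in replicate 1 and -0.35 in replicate 2. *Sox4* passed edgeR's quasi-likelihood test with the library as a block (log2 change -2.29, adjusted p = 0.0147) but not without it (-2.74, adjusted p = 0.723). *Sox4* correlated with the score of arterial genes at -0.06 in replicate 1 and 0.72 in replicate 2, and with that of endothelial genes at -0.03 and 0.76. The part of these genes in its change was not tested. *Lmo2* was higher in both libraries, with changes of 1.43 and 0.77, and did not pass by edgeR's test with the block (adjusted p = 0.393) or without it (adjusted p = 0.880).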
